A study of Mus musculus with 24 samples.

Results

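Hepatocytes around the central vein of the liver lobule keep a set of genes on through Wnt ligands and R-spondin that come from the endothelium of that vein. Ligand binding to Frizzled and LRP receptors stops a destruction complex, built on Axin and holding the GSK3 kinases, from degrading β-catenin, which then joins TCF/LEF factors at target genes. The best known of these genes build the ammonia scavenging zone, where glutamine synthetase takes up the ammonia that upstream hepatocytes have left. A group of 10 such genes, chosen by symbol, is described here in livers of mice that overexpressed L2d13 and of wild-type (WT) mice, as 10 of the 18171 genes measured. They are Glul (glutamine synthetase), Oat (ornithine aminotransferase), Rhbg (an ammonia channel of the Rh family), Slc1a2 (the glutamate transporter GLT-1), Slc13a3 (a sodium-coupled dicarboxylate transporter), Lhpp (a histidine and pyrophosphate phosphatase), Rgn (regucalcin, which binds calcium and serves as gluconolactonase in ascorbate synthesis), Tbx3 (a T-box transcription factor), Lgr5 (a receptor for R-spondins) and Axin2 (a scaffold of the destruction complex and feedback inhibitor that Wnt signals induce in many tissues). They were chosen for what is known of them. Earlier results of these data were also known when they and the gene lists below were chosen, so counts over them are descriptions and no independent test. Bulk liver RNA holds no positions, so it cannot show in which cells they were expressed, and fewer cells of a type and less RNA per cell cannot be told apart.

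All 24 livers were C57BL/6. The L2d13 livers overexpressed the form that the labels write as L2 delta13, with neither promoter nor line given, and the WT livers carried no allele that the labels name. Age and sex are not given in the sources used here. The labels do not write out what L2 stands for; delta13 forms are known of Loxl2, a lysyl oxidase. A digit in the sample names, 2 or 4 and unexplained in the labels, splits each genotype into set 2 and set 4, which makes 4 groups of 6 libraries. Whether each library was a different animal is not stated, and the p-values therefore cover the spread between libraries, part of which may be technical.

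Expression was deposited as FPKM (fragments scaled by transcript length and by the fragments mapped in the library), and depth per library is unknown. Loxl2 ranged between 0.83 and 2.26 FPKM in the 12 L2d13 libraries and between 0.36 and 1.26 FPKM in the 12 WT libraries. The hepatocyte markers Alb, Apoa1, Ttr and Apob summed to between 24226 and 50948 FPKM, and markers of skeletal muscle and adipocytes were near 0. In 6 libraries 1 fragment was worth more FPKM than in the other 18, by the steps between values of low genes. These were 1 of 6 L2d13 libraries of set 2 (replicate 3), none of set 4, 1 of 6 WT libraries of set 2 (replicate 6) and 4 of 6 WT libraries of set 4 (replicates 9 to 12). Scaled to a median of 1 over the 24 libraries, this worth was 1.025 to 1.24 in the 6 and 0.954 to 1.012 in the other 18. The cut between the classes thus lay in a narrow gap, and no other cut was tried. Replicates 10 to 12 of the WT libraries of set 4 lay close above it, at 1.025 to 1.045. Major urinary protein genes took 9.06% to 33.6% of the FPKM sum in these 6 and 5.31% to 23.2% in the other 18. By group that share was 5.31% to 10.6% in L2d13 and 11.2% to 22.8% in WT libraries of set 2. In set 4 it was 10.1% to 23.2% in L2d13 and 11.7% to 33.6% in WT libraries. Replicate 3 of the L2d13 libraries of set 2 also had the lowest sum of hepatocyte markers of the 24. Its sums of cholangiocyte (123 FPKM), sinusoidal endothelial (197 FPKM) and erythroid (1674 FPKM) markers were the highest. So were its sums of central vein endothelial (22.5 FPKM), Kupffer cell (146 FPKM) and stellate cell (189 FPKM) markers. Lymphocyte (14.2 FPKM) and neutrophil (17.9 FPKM) markers were highest there too. The values of all 10 genes in each library are shown in the plot of FPKM by group.

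**Figure D1:**
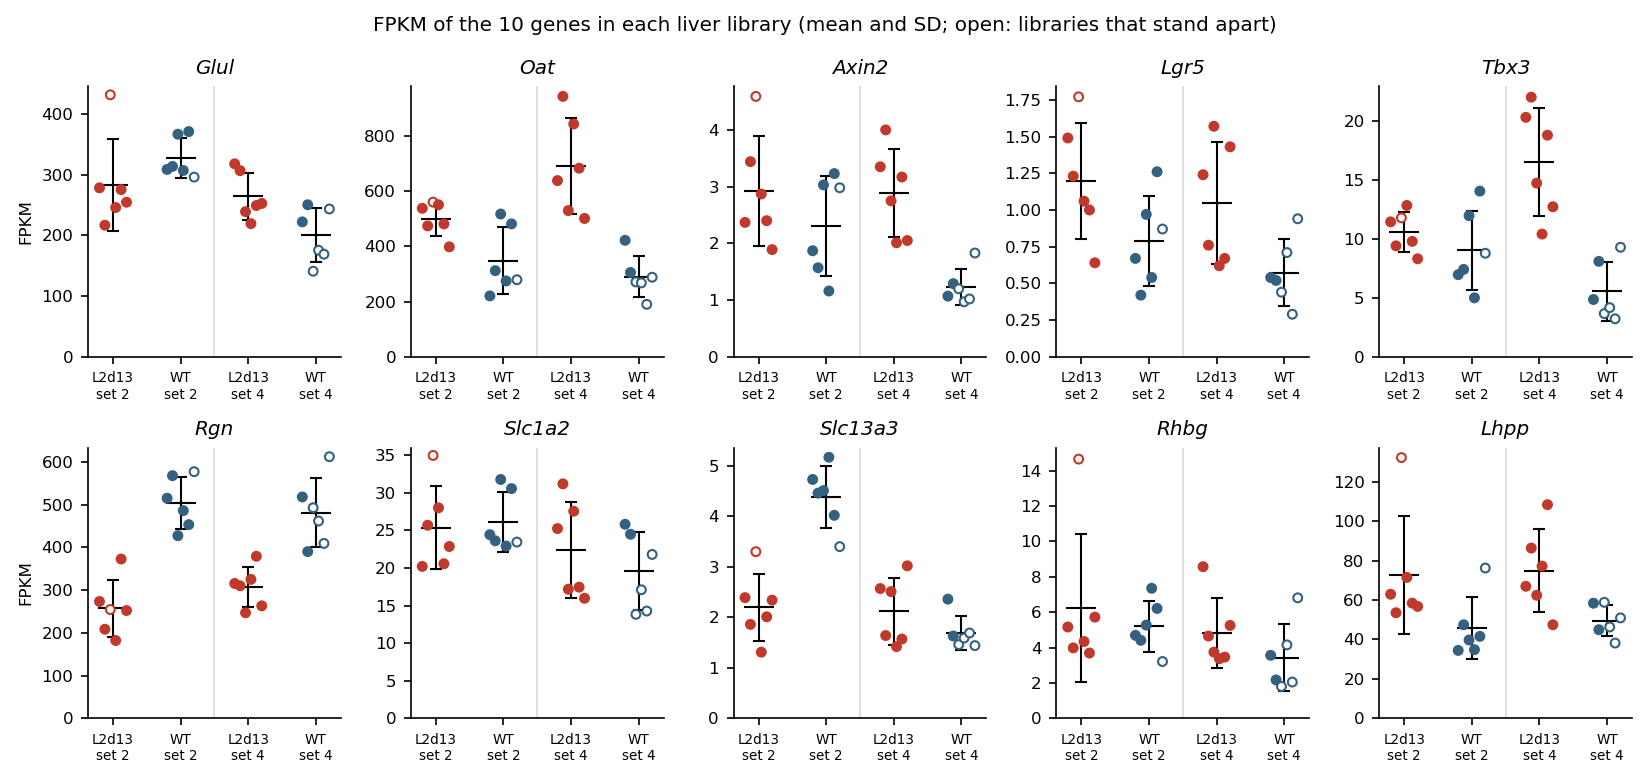
FPKM of the 10 genes in each of the 24 libraries, on linear axes that start at 0; the x axis gives the groups L2d13 set 2, WT set 2, L2d13 set 4 and WT set 4 (n = 6 each), the bars the mean and SD, and open points the 6 libraries that stand apart. Rgn lay below every WT library in all 12 L2d13 libraries, while Slc13a3 reached 3.40 to 5.17 FPKM in WT libraries of set 2 and at most 3.30 FPKM in any other group.

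In genome position (GRCm38, GENCODE M21) Glul lies at chr1:153899944-153909723 (+), Oat at chr7:132557478-132576398 (−), Axin2 at chr11:108920349-108950783 (+), Lgr5 at chr10:115450311-115587780 (−), Tbx3 at chr5:119670669-119684724 (+), Rgn at chrX:20549787-20562089 (+), Slc1a2 at chr2:102658659-102790784 (+), Slc13a3 at chr2:165405028-165473230 (−), Rhbg at chr3:88242874-88254709 (−) and Lhpp at chr7:132610638-132706420 (+). Oat and Lhpp are neighbours on chromosome 7 that run away from each other, with 34239 bases and 2 annotated genes between them. Rhbg shares 60.4% of its transcript 50-mers with Gm38392, an annotated gene that overlaps it on the same strand, so its values are uncertain. For Glul the shared part was 11.9%, largely with pseudogenes such as Glns-ps1, and for the other 8 genes it was under 1%.

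β-Catenin acts through TCF/LEF factors, whose core site reads TCAAAG, or on the other strand CTTTGA. RefSeq promoter windows (GRCm38.p6, 250 bases before to 50 after the annotated start) were at hand for 5 of the 10 genes, Glul, Oat, Axin2, Slc1a2 and Slc13a3. Among these windows 1 of 5 held the core, that of Slc1a2, with 1 match on each strand, against 16.0% of all 32851 windows and 14.5% of those of the tested genes. The 3 windows below belong to a gene induced by Wnt signals in many tissues (Axin2), to a gene that rose over both sets (Oat) and to the gene whose window held the core (Slc1a2). Bases are given 5′ to 3′ on the gene's strand, and capitals mark TCAAAG and CTTTGA. The Slc1a2 window lies inside the GENCODE span of the gene, downstream of its first base. A match is only a match of letters, and the absence of one in 300 bases says nothing of binding elsewhere.
Axin2, chr11:108920099-108920398 (+): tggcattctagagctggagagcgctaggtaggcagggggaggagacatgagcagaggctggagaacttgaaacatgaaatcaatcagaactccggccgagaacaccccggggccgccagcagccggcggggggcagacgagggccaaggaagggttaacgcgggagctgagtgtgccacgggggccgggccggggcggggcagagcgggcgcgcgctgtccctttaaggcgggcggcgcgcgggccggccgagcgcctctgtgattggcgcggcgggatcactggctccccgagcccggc
Oat, chr7:132576349-132576648 (−): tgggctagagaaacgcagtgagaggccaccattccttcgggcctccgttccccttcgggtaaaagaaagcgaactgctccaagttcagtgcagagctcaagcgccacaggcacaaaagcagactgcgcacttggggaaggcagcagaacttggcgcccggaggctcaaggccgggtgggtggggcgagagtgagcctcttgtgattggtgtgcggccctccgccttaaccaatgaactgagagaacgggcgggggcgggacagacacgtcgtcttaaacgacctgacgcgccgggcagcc
Slc1a2, chr2:102706188-102706487 (+): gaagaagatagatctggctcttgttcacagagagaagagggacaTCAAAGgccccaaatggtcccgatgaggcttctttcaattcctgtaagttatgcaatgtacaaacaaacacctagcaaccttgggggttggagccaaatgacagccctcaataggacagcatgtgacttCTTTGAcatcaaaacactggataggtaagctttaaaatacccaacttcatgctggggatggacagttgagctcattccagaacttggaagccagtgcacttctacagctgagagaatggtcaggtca

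Over both sets, 5 of the 10 genes were higher and 1 was lower in L2d13 livers than in WT livers. Oat, Tbx3, Lhpp, Axin2 and Lgr5 were higher, by 0.91, 0.86, 0.59, 0.52 and 0.33 on the log2(FPKM + 1) scale. Rgn was lower, with a log2 difference of -0.82. Glul, Slc1a2, Rhbg and Slc13a3 did not pass the test. Differences were fitted with limma on log2(FPKM + 1) with set as a term, over the 10532 genes that reached 1 FPKM in 6 or more libraries, and called at a Benjamini-Hochberg adjusted p under 0.05. All 10 genes passed that filter, Lgr5 only through its L2d13 libraries. Of all tested genes 25.9% were called higher and 4.86% lower, 30.8% in either direction, and the median log2 difference was 0.31 over the 10 genes and 0.12 over all tested genes. Scaling moved that background. With median-of-ratios size factors the median of all genes fell by 0.12, 1215 genes were called higher and 1164 lower in place of 2730 and 512, and of the 10 genes 5 were higher and 2 lower. Without the 6 libraries that stand apart 3 were higher (Oat, Tbx3, Lhpp) and 2 lower (Rgn, Slc13a3), where 14.8% of all tested genes were higher and 4.78% lower. The log2 differences by set are drawn in the plot of genotype differences.

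**Figure D2:**
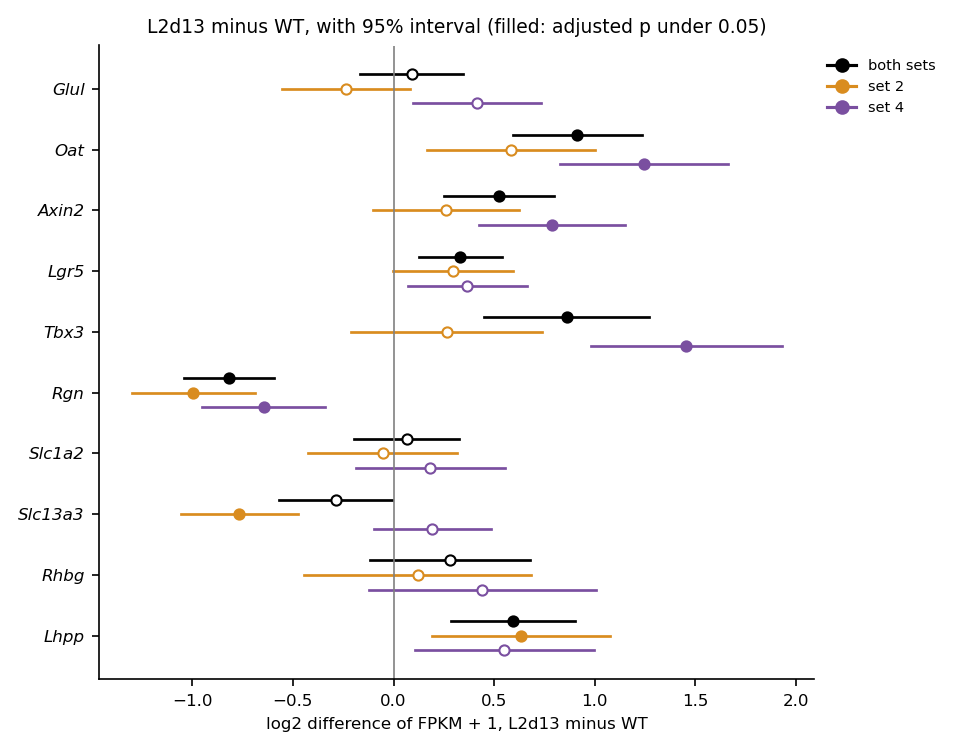
Log2 difference of FPKM + 1, L2d13 minus WT, for each of the 10 genes (rows), over both sets (black), in set 2 (orange) and in set 4 (purple); points are limma estimates, lines their 95% intervals, and filled points have an adjusted p under 0.05. Rgn lies left of 0 in both sets, at -0.997 in set 2 and -0.64 in set 4, while Slc13a3 lies left of 0 in set 2 only, at -0.77.

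Glul, the glutamine synthetase that defines the innermost ring of hepatocytes, took opposite directions in the 2 sets and passed the test in neither. In set 2 it had 217, 265 and 431 FPKM as lowest, median and highest in L2d13 libraries, against 296, 311 and 371 FPKM in WT libraries. In that set 5 of 6 L2d13 libraries lay below all WT libraries and the other one, replicate 3, above them all. In set 4 the values were 219, 251 and 318 FPKM in L2d13 libraries, against 141, 199 and 250 FPKM in WT libraries, with overlap. The log2 differences were -0.23 ± 0.15 in set 2 (SE; limma adjusted p = 0.318), 0.42 ± 0.15 in set 4 (adjusted p = 0.0726) and 0.09 ± 0.13 over both (95% interval -0.17 to 0.35; adjusted p = 0.618). Without the 6 libraries that stand apart Glul was lower in L2d13 livers of set 2 (log2 -0.39, adjusted p = 0.0192), and the difference over both sets was -0.19 (adjusted p = 0.220).

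Oat, which turns ornithine into glutamate semialdehyde on the way to glutamate, rose over both sets in L2d13 livers. In set 4 it had 501, 660 and 942 FPKM as lowest, median and highest in L2d13 libraries, against 190, 279 and 422 FPKM in WT libraries. Every L2d13 library of set 4 was above every WT library. In set 2 the values were 398, 509 and 560 FPKM in L2d13 libraries, against 220, 295 and 517 FPKM in WT libraries, and the groups overlapped. The difference was 1.24 ± 0.20 in set 4 (SE; limma adjusted p = 0.000433), 0.58 ± 0.20 in set 2 (adjusted p = 0.0522) and 0.91 ± 0.16 over both (adjusted p = 0.000130), a fold of 1.89. It was 0.65 without the 6 libraries over both sets (adjusted p = 0.0123) and, with 2 WT libraries left in set 4, 0.90 there (adjusted p = 0.0690).

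Rhbg, which lets ammonia pass the hepatocyte membrane, did not pass the test in either set. It had 3.69, 4.75 and 14.7 FPKM in L2d13 libraries of set 2, against 3.21, 4.98 and 7.35 FPKM in WT libraries. The highest of these was replicate 3 of the L2d13 libraries, and the rest of that group lay within the WT range. In set 4 it had 3.37, 4.20 and 8.57 FPKM in L2d13 libraries, against 1.80, 2.87 and 6.81 FPKM in WT libraries, with overlap. The log2 difference over both sets was 0.28 ± 0.19 (SE; limma adjusted p = 0.278; 95% interval -0.11 to 0.68).

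Of the transporters, Slc13a3 fell in set 2 and Slc1a2 did not pass the test in either set. Slc1a2, which in liver takes up glutamate in the same ring as Glul, had 20.2, 24.3 and 35.0 FPKM in L2d13 libraries of set 2, against 22.9, 24.04 and 31.8 FPKM in WT libraries. Its set 4 values were 16.0, 21.4 and 31.2 FPKM in L2d13 libraries, against 13.8, 19.5 and 25.8 FPKM in WT libraries. The groups overlapped in both sets, and the log2 difference over both was 0.07 ± 0.13 (SE; limma adjusted p = 0.731; 95% interval -0.20 to 0.33). Slc13a3, which carries citric acid cycle intermediates, had 1.31, 2.18 and 3.30 FPKM in L2d13 libraries of set 2, against 3.40, 4.49 and 5.17 FPKM in WT libraries. The groups of set 2 did not overlap. In set 4 it had 1.42, 2.08 and 3.02 FPKM in L2d13 libraries, against 1.44, 1.61 and 2.36 FPKM in WT libraries, and these overlapped. Slc13a3 fell in set 2 by 0.77 ± 0.14 on the log2 scale (SE; limma adjusted p = 0.0011), by 0.91 without the 6 libraries (adjusted p = 0.000458), and differed by 0.19 ± 0.14 in set 4 (adjusted p = 0.372). Over both sets its difference was -0.29 ± 0.14 (adjusted p = 0.112), and without the 6 libraries -0.55 (adjusted p = 0.0141).

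Lhpp rose over both sets. It had 53.5, 60.7 and 132 FPKM as lowest, median and highest in L2d13 libraries of set 2, against 34.4, 40.6 and 76.2 FPKM in WT libraries. The values in set 4 were 47.4, 72.0 and 108 FPKM in L2d13 libraries, against 38.2, 48.6 and 58.8 FPKM in WT libraries. The highest library of each genotype in set 2 was 1 of the 6 that stand apart, and in set 4, 5 of 6 L2d13 libraries lay above all WT libraries. The log2 difference was 0.59 ± 0.15 over both sets (SE; limma adjusted p = 0.0042), 0.64 ± 0.22 in set 2 (adjusted p = 0.0474) and 0.55 ± 0.22 in set 4 (adjusted p = 0.0878). It was 0.56 over both sets (adjusted p = 0.00484) and 0.60 in set 2 (adjusted p = 0.0166) without the 6 libraries. The set 2 call was lost in 16 of 24 fits that each left out 1 library, with limma adjusted p between 0.0114 and 0.114. It was also lost in 5 of 10 other settings. These were both other scalings, no filter, the filter at 0.1 FPKM and the replicate block.

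Rgn was the 1 gene of the 10 whose genotypes did not overlap in either set. In set 2 it had 182, 254 and 373 FPKM as lowest, median and highest in L2d13 libraries, against 427.6, 501 and 577 FPKM in WT libraries. In set 4 the values were 247, 313 and 379 FPKM in L2d13 libraries, against 390, 477 and 613 FPKM in WT libraries. All 12 L2d13 libraries lay below all 12 WT libraries, which held for 10 tested genes, 0.0949% of all. Rgn fell by 0.82 ± 0.11 on the log2 scale over both sets (SE; limma adjusted p = 8.92e-06), by 0.997 ± 0.15 in set 2 (adjusted p = 0.000129) and by 0.64 ± 0.15 in set 4 (adjusted p = 0.00611). Its log2 difference without the 6 libraries was -0.81 over both sets (adjusted p = 0.000412), -0.96 in set 2 (adjusted p = 0.000988) and -0.56 in set 4 (adjusted p = 0.123).

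Set against Oat within each library, a ratio that no size factor of a library can move, Rgn and Oat changed places. Oat was 1.29 to 3.04 times Rgn in L2d13 libraries (median 2.08) and above it in 12 of 12. In WT libraries the ratio was 0.428 to 1.21 (median 0.557), and Oat was above Rgn in 2 of 12. By mean FPKM the order in L2d13 livers was Oat (595 ± 159, SD, n = 12), Rgn (282 ± 60.4), Glul (274 ± 58.4), Lhpp (73.6 ± 24.7), Slc1a2 (23.9 ± 5.93), Tbx3 (13.6 ± 4.52), Rhbg (5.55 ± 3.20), Axin2 (2.91 ± 0.838), Slc13a3 (2.16 ± 0.634) and Lgr5 (1.12 ± 0.395). In WT livers it was Rgn (492.8 ± 69.1, SD, n = 12), Oat (319 ± 101), Glul (264 ± 76.0), Lhpp (47.6 ± 12.1), Slc1a2 (22.9 ± 5.59), Tbx3 (7.31 ± 3.38), Rhbg (4.31 ± 1.86), Slc13a3 (3.04 ± 1.48), Axin2 (1.77 ± 0.845) and Lgr5 (0.681 ± 0.281). In L2d13 livers Oat lay clear of Rgn, Glul of Lhpp and Lhpp of Slc1a2, and the other neighbours overlapped, Rgn and Glul with 6 of 12 libraries each way. In WT livers only Glul and Lhpp, and Lhpp and Slc1a2, were neighbours that did not overlap.

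Of the 3 regulators, Tbx3 and Axin2 rose over both sets and did not overlap between genotypes in set 4, and the Axin2 call was lost without the 6 libraries that stand apart. Tbx3 had 10.4, 16.8 and 22.1 FPKM in L2d13 libraries of set 4, against 3.23, 4.53 and 9.31 FPKM in WT libraries. Its set 2 values were 8.33, 10.6 and 12.9 FPKM in L2d13 libraries, against 5.01, 8.12 and 14.1 FPKM in WT libraries. Here all L2d13 libraries lay within the WT range. Tbx3 rose by 1.46 ± 0.23 in set 4 (SE; limma adjusted p = 0.00032), a fold of 2.75, and by 0.86 ± 0.20 over both sets (adjusted p = 0.00216), with 0.26 ± 0.23 in set 2 (adjusted p = 0.466). It kept its call without the 6 libraries, at 1.22 in set 4 (adjusted p = 0.0278) and 0.61 over both sets (adjusted p = 0.0477).

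Axin2, the feedback inhibitor, had 2.01, 2.96 and 4 FPKM in L2d13 libraries of set 4, against 0.970, 1.14 and 1.83 FPKM in WT libraries. In set 2 it had 1.89, 2.64 and 4.59 FPKM in L2d13 libraries, against 1.16, 2.43 and 3.23 FPKM in WT libraries. The groups were apart in set 4 and overlapped in set 2. Its log2 difference was 0.79 ± 0.18 in set 4 (SE; limma adjusted p = 0.00476), 0.26 ± 0.18 in set 2 (adjusted p = 0.334) and 0.52 ± 0.13 over both sets (adjusted p = 0.00438). Both calls were lost without the 6 libraries, at 0.81 in set 4 (adjusted p = 0.0515) and 0.44 over both sets (adjusted p = 0.0515).

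Lgr5 was the lowest of the 10. It had 0.640, 1.15 and 1.77 FPKM in L2d13 libraries of set 2, against 0.420, 0.770 and 1.26 FPKM in WT libraries, and in set 4 0.620, 1 and 1.57 FPKM in L2d13 libraries, against 0.290, 0.530 and 0.940 FPKM in WT libraries. The groups overlapped in both sets. Lgr5 reached the 1 FPKM that the filter asks for in 8 L2d13 libraries and 1 WT library, so it passed the filter through the genotype where it was higher and its call supports nothing on its own. The log2 difference was 0.33 ± 0.10 over both sets (SE; limma adjusted p = 0.0143), 0.30 ± 0.14 in set 2 (adjusted p = 0.168) and 0.37 ± 0.14 in set 4 (adjusted p = 0.0902). A two-sided exact permutation test of the mean FPKM, chosen after seeing the data, had p = 0.0758 for set 2 and p = 0.0433 for set 4, where 6 against 6 libraries allow no p below 0.00216. The difference over both sets was 0.30 without the 6 libraries (adjusted p = 0.0827). At levels near 1 FPKM the added 1 holds the difference down, and with a pseudocount of 0.1 it was 0.66 over both sets (adjusted p = 0.0136) and 0.76 in set 4 (adjusted p = 0.0744).

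By set, 3 of the 10 genes were called in set 2, with Lhpp higher and Rgn and Slc13a3 lower, where 15.1% of all tested genes were called, 13% higher and 2.13% lower. In set 4, 4 were called, with Tbx3, Oat and Axin2 higher and Rgn lower, where 13.3% were called, 10.3% higher and 2.97% lower. These shares moved with the setting. Without the 6 libraries 1869 of all tested genes were higher and 306 lower in set 2, and 220 were higher and 299 lower in set 4, where Tbx3 alone of the 10 was called. With median-of-ratios scaling 373 were higher and 390 lower in set 2, and 631 were higher and 639 lower in set 4. Groups did not overlap for 2 of 10 genes in set 2 (6% of all tested genes) and 4 of 10 in set 4 (6.56%). The genotype differences of the sets were themselves compared, as set 4 minus set 2. Slc13a3 passed that test (0.96 ± 0.20, SE; limma adjusted p = 0.0417), as did 0.152% of all tested genes, 16 in number. That number was 67 without the 6 libraries, 68 with a term for their class, and between 6 (without replicate 5 of the WT libraries of set 2 or replicate 8 of the L2d13 libraries of set 4) and 19 with 1 library left out. Tbx3 differed between sets by 1.19 ± 0.32 (adjusted p = 0.222), Oat by 0.66 ± 0.29 (adjusted p = 0.625) and Glul by 0.65 ± 0.22 (adjusted p = 0.383), so that a difference between sets was not shown for them. The Slc13a3 call was lost in 19 of 24 fits that left out 1 library, with adjusted p between 0.0135 and 0.103, and without the 6 libraries (0.96, adjusted p = 0.0636).

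Between WT livers of set 4 and set 2, 2 of the 10 genes were called. Slc13a3 averaged 1.70 ± 0.340 FPKM in WT libraries of set 4 and 4.38 ± 0.610 FPKM in WT libraries of set 2 (SD, n = 6 each), a log2 difference of -0.998 ± 0.14 (SE; limma adjusted p = 0.00062). The groups did not overlap. Glul averaged 200 ± 44.6 FPKM in WT libraries of set 4 and 327 ± 32.8 FPKM in WT libraries of set 2 (SD, n = 6 each), a log2 difference of -0.73 ± 0.15 (SE; limma adjusted p = 0.0462), again without overlap. The groups did not overlap for 0.437% of all tested genes. Of all tested genes 0.19%, 20 in number, were called between these groups. That number rested on single libraries, at 82 without replicate 8 of the WT libraries of set 4 and 7 without replicate 3 of the WT libraries of set 2, and it was 1 without the 6 libraries. The other 8 genes did not pass this test, with log2 differences between -0.63 (Tbx3) and 0.16 (Lhpp). In L2d13 livers 0 of 10 genes were called between set 4 and set 2 (limma; 2 of them, Tbx3 and Oat, had an unadjusted p under 0.05), where 6.06% of all tested genes were. Of the 6 WT libraries of set 4, 4 stand apart, and with the 6 such libraries left out neither WT call was kept, at -0.90 for Slc13a3 (adjusted p = 0.127) and -0.49 for Glul (adjusted p = 0.423). The Glul call was lost in 19 of 24 fits without 1 library, with adjusted p between 0.0107 and 0.155. The plot of set differences shows both genotypes side by side.

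**Figure D3:**
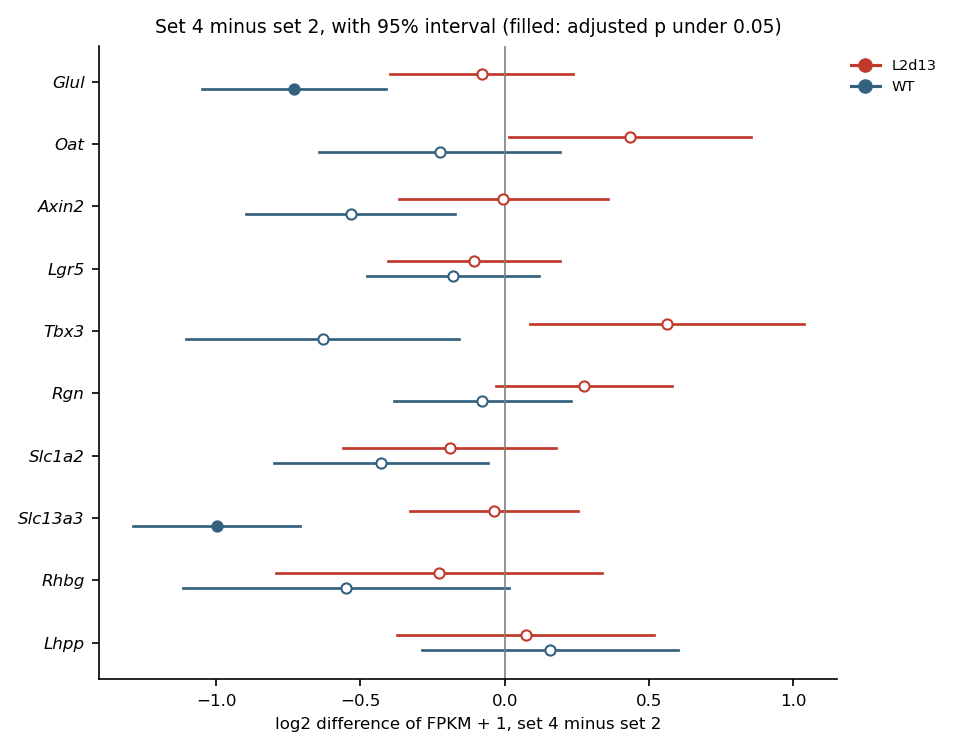
Log2 difference of FPKM + 1, set 4 minus set 2, for each of the 10 genes (rows) in L2d13 livers (red) and in WT livers (blue); points are limma estimates, lines their 95% intervals, and filled points have an adjusted p under 0.05. In WT livers Slc13a3 lies at -0.998 and Glul at -0.73, while in L2d13 livers they lie at -0.04 and -0.08.

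Between libraries of a group some of the 10 genes varied together. With the mean of each group taken off, the 24 libraries gave 45 pairs of genes. Of these, 36 had a Pearson's r above 0, and 30 in the 18 libraries that do not stand apart. The median over the 24 libraries was 0.34. The share over all pairs of tested genes was not computed, so these counts show nothing particular to the 10. Ranked among all tested genes, Axin2 was at rank 1 in likeness to Tbx3. It was at rank 3294 in likeness to Lhpp (r = 0.54), and Oat at rank 1587 in likeness to Glul (r = 0.43). Axin2 and Tbx3 were the most alike, at r = 0.77 (Spearman's rho 0.78), and at 0.88 in the 18 libraries that do not stand apart. Oat and Slc1a2 followed at 0.73 (0.71 in the 18), and Glul and Rhbg at 0.71 (0.47 in the 18). Rgn was near 0 with most of the others, and the lowest value was that of Slc13a3 and Lhpp, at -0.20 (-0.64 in the 18). These are descriptions across libraries that share their scaling and depth, and no p is given. All pairs stand in the plot of likeness.

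**Figure D4:**
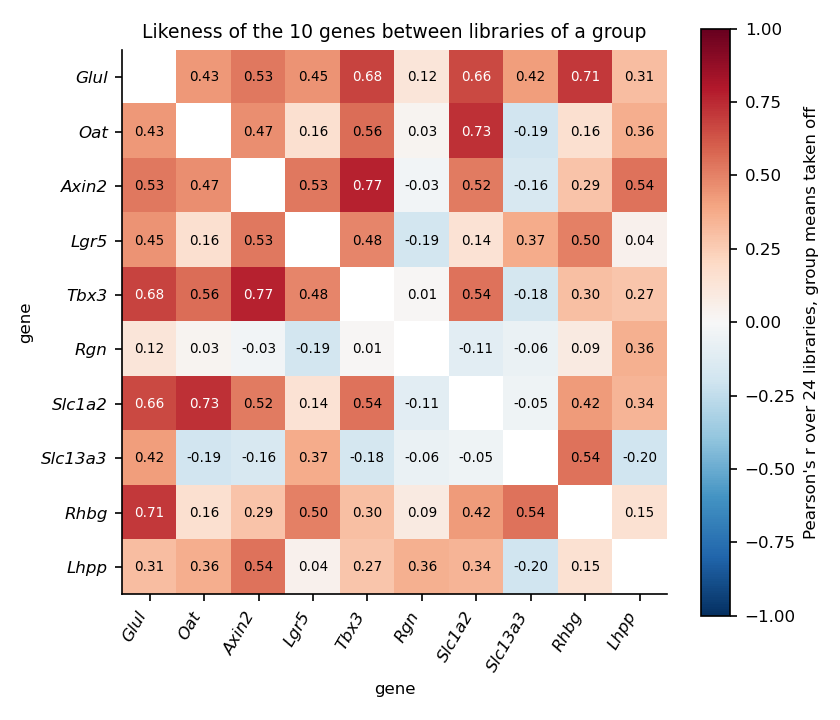
Pearson's r of log2(FPKM + 1) between each pair of the 10 genes over 24 libraries after the mean of each of the 4 groups was taken off, with genes in rows and columns and colour from -1 (blue) to 1 (red). Axin2 and Tbx3 reach 0.77 and Oat and Slc1a2 0.73, while Slc13a3 and Lhpp lie at -0.20.

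Among all tested genes, those most like each of the 10 by the same measure over 24 libraries were as follows. Glul was most like Manba (0.84), Ldhb (0.79) and Acox3 (0.79). Oat was most like Gfm2 (0.80), Cd36 (0.78) and Cog4 (0.76), and Slc1a2 was most like Oat (0.73), Eml4 (0.71) and Abitram (0.70). For Rgn they were Car3 (0.86), the muscle-type carbonic anhydrase also made in liver, Serpina6 (0.79), which carries corticosteroids in blood, and Serpinc1 (0.76), which is antithrombin. Tbx3 had Axin2 (0.77), Cep68 (0.77) and Iffo2 (0.76), and Axin2 had Inip (0.79), Gse1 (0.77) and Esrp2 (0.77). Lgr5 was most like Cdc14b (0.86), Cenpl (0.85) and Rarb (0.83), Slc13a3 like Metrn (0.76), Sufu (0.73) and Angptl2 (0.71), Rhbg like Col18a1 (0.77), Cryzl2 (0.76) and F7 (0.75), and Lhpp like Cilk1 (0.90), Trmu (0.89) and Lmnb2 (0.89). In the 18 libraries that do not stand apart Glul and Manba had 0.55 and Rgn and Car3 0.91.

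Upstream of these genes, 4 of 10 tested Wnt receptor genes were higher in L2d13 livers over both sets and none was lower, where 25.9% of all tested genes were higher. Of the 10, Fzd5 and Fzd6 passed the filter only through L2d13 livers. They reached 1 FPKM in 12 and 10 L2d13 libraries and in 5 and 3 WT libraries. They could hardly have been called lower, so the count supports nothing for them. Fzd8 averaged 4.50 FPKM in L2d13 livers and 2.39 FPKM in WT livers (log2 0.74 ± 0.14, SE; limma adjusted p = 0.000348). Fzd5 averaged 1.49 FPKM in L2d13 livers and 0.847 FPKM in WT livers (0.43 ± 0.09; adjusted p = 0.000642), having passed the filter through its L2d13 libraries, and Fzd1 differed by 0.36 ± 0.08 (adjusted p = 0.00186). Frizzled genes are also expressed outside hepatocytes. Of 5 tested genes for ligands and their secretion, Wnt5b, a ligand that mostly signals without β-catenin, was higher (0.57 ± 0.13; adjusted p = 0.00195) and Porcn, the acyltransferase that readies Wnt proteins for secretion, was lower (-0.52 ± 0.14; adjusted p = 0.00565). The central vein signals Rspo3 (0.21 ± 0.16, SE; limma adjusted p = 0.330) and Wnt2 (0.17 ± 0.15; adjusted p = 0.420) did not pass the test, and Wls, which escorts Wnt proteins to the cell surface, differed by 0.14 ± 0.10 (adjusted p = 0.296). Wnt9b, a further ligand of that endothelium, did not pass the filter and ranged between 0.12 and 0.86 FPKM in L2d13 libraries and between 0.04 and 0.50 FPKM in WT libraries.

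Of 4 tested inhibitors at the cell surface, the ubiquitin ligase gene Rnf43, itself a Wnt target, was higher (0.65 ± 0.19, SE; limma adjusted p = 0.0108), while Kremen1 (0.24 ± 0.10; adjusted p = 0.0555) and Notum, a hydrolase that inactivates Wnt proteins (0.24 ± 0.12; adjusted p = 0.140), did not pass. Of 14 tested genes of β-catenin control 0 passed the test by limma (3 had an unadjusted p under 0.05), namely Csnk1a1, the casein kinase that primes β-catenin for degradation (0.31 ± 0.13, SE; adjusted p = 0.0578), Btrc, which marks it for degradation (0.16 ± 0.07; adjusted p = 0.0836), and Ctnnb1 itself (0.25 ± 0.11; adjusted p = 0.0858). Of 12 TCF/LEF factors and cofactors 1 was lower, the corepressor gene Tle2 (-0.69 ± 0.26, SE; limma adjusted p = 0.0429), and the next by p were Bcl9 (0.24 ± 0.10; adjusted p = 0.0856) and Bcl9l (-0.22 ± 0.13; adjusted p = 0.211). Beside these lists, 25.9% of all tested genes were higher and 4.86% lower. With median-of-ratios scaling 3 of the 12 TCF/LEF factors and cofactors were lower, with quantile scaling 4, without the 6 libraries 2, and with no filter on low values 0 of 14. Of all tested genes 11.1%, 10.2%, 4.78% and 2.71% were lower under these settings. Of the β-catenin control genes 1 was lower with median-of-ratios and 2 with quantile scaling. With a term for the class of library 2 were higher, and with no filter 1, where 26.5% and 14.9% of all tested genes were. Of 4 other tested Wnt targets 2 were higher, beside the same 25.9% of all tested genes in the main fit. Sp5, a zinc finger factor that Wnt signals induce directly, averaged 1.41 FPKM in L2d13 livers and 0.593 FPKM in WT livers (0.59 ± 0.12; adjusted p = 0.000868), but it reached 1 FPKM in 9 L2d13 libraries and 2 WT libraries and so passed the filter through L2d13 livers. Ccnd1, the cyclin that drives entry into S phase, averaged 4.62 FPKM in L2d13 livers and 2.19 FPKM in WT livers (0.81 ± 0.20; adjusted p = 0.00301). Myc differed by 0.15 ± 0.16 (adjusted p = 0.508). With the 6 libraries that stand apart left out, 0 of the 4 inhibitors and 1 of the 4 other targets were called. There 14.8% of all tested genes were higher and 4.78% lower.

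Most of the called pericentral genes outside the 10 were lower in L2d13 livers, unlike Oat, Tbx3 and Axin2. Of 25 tested genes of that zone outside the 10, 12 were lower and 4 higher, where 4.86% of all tested genes were lower and 25.9% higher, with a median log2 difference of -0.44, against 0.12 over all tested genes. The glutathione transferase genes Gstm3 (-1.66 ± 0.19, SE; limma adjusted p = 1.71e-06) and Gsta3 (-0.91 ± 0.11; adjusted p = 2.94e-06) and the cytochrome Cyp1a2 (-1.08 ± 0.13; adjusted p = 4.31e-06) had the smallest p. With median-of-ratios scaling 16 were lower and 1 higher, where 11.1% of all tested genes were lower and 11.5% higher. Among the 25, Slc22a3 reached 1 FPKM in 12 L2d13 libraries and 5 WT libraries and so passed the filter through L2d13 livers. It could hardly have been called lower, so the counts support nothing for it. Of 19 tested periportal genes 5 were higher and 2 lower, with a median of 0.13, which is near the share of higher genes and the median over all tested genes. Asl, of the urea cycle, was higher (0.79 ± 0.13; adjusted p = 0.000101), as was Sdsl, related to serine dehydratase (0.52 ± 0.11; adjusted p = 0.00122), while Otc, which makes citrulline, was lower (-0.55 ± 0.11; adjusted p = 0.000738), and with median-of-ratios scaling 3 were higher and 3 lower. Under that scaling 11.5% of all tested genes were higher and 11.1% lower. The spread of each list stands in the plot of gene lists.

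**Figure D5:**
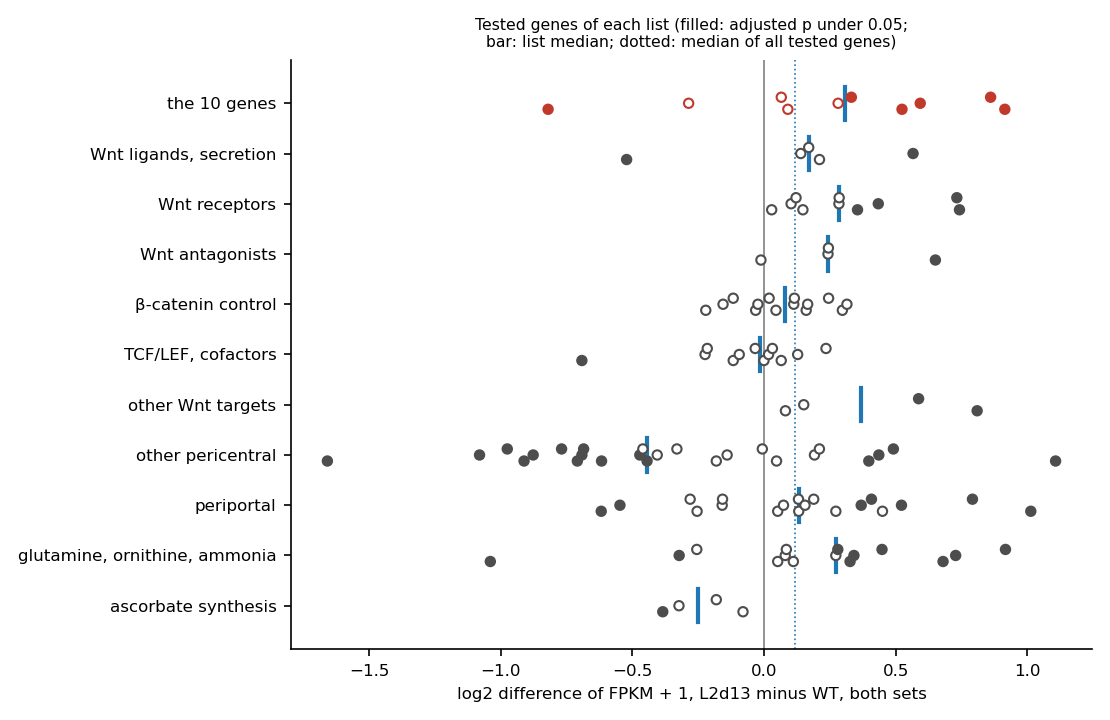
Log2 difference of FPKM + 1, L2d13 minus WT over both sets, for each tested gene of 11 groups (rows), the 10 genes in red at the top; filled points have an adjusted p under 0.05, bars are the median of a list and the dotted line is the median of all tested genes. The median of the other pericentral genes lies at -0.44 and that of the 10 genes at 0.31, with all tested genes at 0.12.

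Around Glul, Oat and Rhbg, 7 of 15 tested genes of glutamine, ornithine and ammonia handling were higher and 2 lower in L2d13 livers, where 25.9% of all tested genes were higher and 4.86% lower. The aminotransferase genes Got1 (0.92 ± 0.15, SE; limma adjusted p = 0.000123) and Gpt2 (0.68 ± 0.12; adjusted p = 0.000136) were higher, and Slc38a2, an importer of neutral amino acids, was lower (-1.04 ± 0.14; adjusted p = 1.22e-05). With median-of-ratios or quantile scaling 3 were higher and 2 lower, and without the 6 libraries or with the replicate block 4 were higher and 2 lower. Under these settings, in that order, 11.5%, 12.4%, 14.8% and 20.3% of all tested genes were higher. The shares lower were 11.1%, 10.2%, 4.78% and 3.73%. Around Rgn, of 4 tested genes of ascorbate synthesis Ugdh was lower (-0.38 ± 0.09, SE; limma adjusted p = 0.00214), while Ugp2 (-0.32 ± 0.13; adjusted p = 0.0515) and Gulo, which carries out the last step (-0.18 ± 0.11; adjusted p = 0.218), did not pass; without the 6 libraries all 4 were lower.

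Of the markers of other liver cells, those of sinusoidal endothelium were called most often in the main fit, where 25.9% of all tested genes were higher. Of 7 sinusoidal endothelial markers 5 were higher in L2d13 livers and none lower (median log2 0.53), though 1 without the 6 libraries and 2 with median-of-ratios or quantile scaling, and their sum was 89.0 to 197 FPKM in L2d13 libraries of set 2, against 35.4 to 97.5 FPKM in WT libraries of set 2. In set 4 the sum was 35.7 to 78.4 FPKM in L2d13 libraries, against 25.2 to 79.3 FPKM in WT libraries. Of all tested genes 14.8% were higher without the 6 libraries, 11.5% with median-of-ratios and 12.4% with quantile scaling. In the main fit 2 of 6 Kupffer cell markers and 1 of 7 stellate cell markers were higher, near or below the 25.9%. Without the 6 libraries 0 Kupffer and 2 stellate cell markers were higher, beside the 14.8% of all tested genes. With a term for the class of library 0 Kupffer, 4 stellate and 3 sinusoidal endothelial markers were higher, where 26.5% of all tested genes were. Of 4 tested markers of central vein endothelium 0 were called in either direction by limma, and 0 had an unadjusted p under 0.05. Without the 6 libraries 1 of them was lower, where 4.78% of all tested genes were, and with the class term 1 was higher. The sum of the 6 central vein markers was 3.92 to 22.5 FPKM in L2d13 libraries and 3.62 to 10.3 FPKM in WT libraries. The 22.5 FPKM came from replicate 3 of set 2 alone, and all other libraries had at most 10.3 FPKM. No marker of these lists was at 0 in all libraries. Their part in the differences of the 10 genes was not tested.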

How the data were processed

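The authors deposited 1 table of FPKM, and its values were used unchanged. HISAT, Bowtie2, RSEM and the build GRCm38.p5 are listed in the submitters' processing notes, with no version of a tool. Per the labels' protocols, liver RNA was isolated with TRIzol and run on a BGISEQ-500. FPKM keep no read totals, so no counting error is given. Each of the 24 columns matched 1 sample. Of the gene identifiers 18040 matched a RefSeq symbol and 131 did not.

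From these values limma 3.58.1 (R 4.3.3) fitted log2(FPKM + 1), with variances that follow the mean, over genes at 1 FPKM or more in at least 6 libraries. The fit over both sets had additive terms for set and genotype, and all other contrasts came from 1 mean per group. Tests were two-sided and adjusted by Benjamini and Hochberg within a contrast. The 10 genes and all lists were chosen with earlier results of these data known, and 10 listed genes were not matched in the table. Of each list the 3 tested genes with the smallest p are named, passing over the 10. Rspo3, Wnt2 and Wnt9b were named outside this rule, chosen after their values were seen. Fzd6 and Slc22a3 are named only for the way they passed the filter. Of each of the 10 the 3 most alike genes are named. The fits were tested on simulated data. Python 3.11.15 with pandas 2.3.3, numpy 2.4.6, scipy 1.17.1 and matplotlib 3.10.9 made tables and plots. Other pseudocounts, filters, scalings, libraries left out, a replicate block and a term for the class of library, the last added after seeing the data, were tried.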

Additional observations from a re-analysis of the deposited data

Results flagged for a closer look

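In 7 of 40 groups of 6 libraries, 1 library lay far from the rest by Dixon's test, where the gap to the nearest library, as a share of the range, must pass 0.625; chance gives about 1 in 20. Replicate 3 of the L2d13 libraries of set 2, which had the most marker RNA of other cell types, was the highest for Glul (431 FPKM, gap 0.713), Rhbg (14.7 FPKM, gap 0.815) and Lhpp (132 FPKM, gap 0.773). Among L2d13 libraries of set 4, replicate 7 was the highest for Rhbg (8.57 FPKM, gap 0.638). Among WT libraries of set 2, replicate 6 was the highest for Lhpp (76.2 FPKM, gap 0.688). Among WT libraries of set 4, replicate 12 was the highest for Axin2 (1.83 FPKM, gap 0.628) and replicate 7 for Slc13a3 (2.36 FPKM, gap 0.728).

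Slc13a3 also stood out because its genotype difference was not the same in both sets, at 0.961 on the log2 scale as set 4 minus set 2 (limma adjusted p = 0.0417).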

How the results depend on the processing

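Leaving out 1 library at a time left 6 to 7 of the 10 genes called over both sets, 2 to 4 in set 2, 4 to 6 in set 4, 0 to 1 for the difference between sets, 0 to 0 between sets in L2d13 livers and 1 to 2 in WT livers; the 7th over both sets was Slc13a3 without replicate 12 of the L2d13 libraries of set 4 (adjusted p = 0.0498). Of all tested genes these fits called 25.9% to 36.5% over both sets, 9.23% to 17.3% in set 2 and 7.91% to 23.1% in set 4. They called 0.057% to 0.18% for the difference between sets, 2.79% to 8.38% between sets in L2d13 livers and 7 to 82 genes in WT livers. Without the 6 libraries that stand apart 1 gene was called in set 4 (Tbx3), 0 for the difference between sets and 0 between sets in WT livers. Of all tested genes 4.93%, 0.636% and, between sets in WT livers, 1 gene were called there. The call of Slc13a3 between sets was also lost (0 called) with a pseudocount of 0.1 or 0.5, without a filter or with one at 0.1 FPKM, and under the replicate block. Under these settings 0.033% to 0.152% of all tested genes passed. Between sets in WT livers 1 was called (Slc13a3) without a filter, with the filter at 0.1 FPKM, with median-of-ratios scaling and with the term for the class of library. There 0.135% to 0.266% of all tested genes were called. The labels state no pairing by library number. Of 12 same-numbered pairs 4 had a correlation of deviations over 0.1, with values from -0.60 to 0.26, which cannot exclude a pairing. With the replicate block 6 genes were called over both sets, 2 in set 2 and 4 in set 4.

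Some small log2 differences changed sign; the cause was not tested. Over both sets Glul was at -0.053 with median-of-ratios scaling and -0.19 without the 6 libraries, and Slc1a2 at -0.072, -0.043 (quantile) and -0.19. In set 2 Rhbg was at -0.041, -0.033 and -0.23 under these 3 settings. Without the 6 libraries Slc1a2 was at -0.20 in set 4 and -0.028 between sets, while for set 4 minus set 2 Oat was at 0.068 in WT livers and Rhbg at 0.022 in L2d13 livers. For the difference between sets Lhpp was at 0.022 (quantile) and 0.27 (class term). For set 4 minus set 2 in L2d13 livers, median-of-ratios, quantile and the 18 libraries gave Glul 0.10, 0.062 and 0.048, Slc13a3 0.089, 0.13 and 0.052 and Axin2 0.13, 0.16 and 0.10 (0.046 with the class term), and quantile gave Lgr5 0.068. In WT livers Rgn was at 0.026 (median-of-ratios) and Lhpp at -0.11 (class term).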

Other observations

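Replicate 1 of the L2d13 libraries of set 2 held 64.4 FPKM summed over 4 markers of exocrine pancreas, which summed to at most 0.08 FPKM in the WT libraries. The kidney list of 3 markers summed to 0.49 to 7.52 FPKM in L2d13 libraries of set 4 and 0.03 to 8.97 FPKM in WT libraries of set 4. In set 2 that sum was 0 FPKM in every L2d13 library and at most 0.02 FPKM in WT libraries.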
